A study of Mus musculus with 5 samples.

Results

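The genes described here are 10 mouse genes of the response to low oxygen: Hilpda, P4ha1, P4ha2, Hk2, Bnip3, Egln1, Egln3, Hif1a, Epas1 and Ankrd37. They were taken by gene symbol, as all probe sets that the platform annotation gives to one of these names. The list itself was chosen by someone who knew the day 4 against day 0 values of these arrays. For that reason the changes of these genes are given as a description, with no test. In the table of 22690 probe sets, 15 carried one of the names, and 13 of the 15 passed the level filter (a log2 value above 4 on at least 2 arrays). Of the 10 genes, 9 had a probe set, out of 12393 genes named on the array. Ankrd37 had none under its own name and was not analysed here.

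The study measured endothelial cells of the thymus, the cells that line its blood vessels, on 5 single-colour Affymetrix arrays. All mice were female C57BL/6J, 6 to 8 weeks old. The 3 day 0 arrays came from untreated mice. The 2 day 4 arrays came from mice killed 4 days after 550 cGy of total body irradiation from a cesium source, a sublethal dose, given without rescue by hematopoietic cells. Both groups were depleted of CD45+ cells on magnetic columns and then sorted as CD45- EpCAM- VE-Cad+. The labels call the day 4 cells CD45- stromal cells and the day 0 cells endothelial, although 1 sorting protocol is given for both. Cells of several mice were pooled for each array, so the spread between arrays is that between pools and may be partly technical.

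Cells sense oxygen through the hypoxia-inducible factors (HIFs), which pair an oxygen-controlled alpha subunit, such as the products of Hif1a and Epas1, with the constant partner encoded by Arnt. When oxygen is present, prolyl hydroxylases of the Egln family mark the alpha subunit, and the Vhl protein then has it degraded. When oxygen is short, the alpha subunit escapes and switches on genes for glucose use, lipid storage, matrix building and removal of mitochondria. The alpha subunits are thus controlled mainly as proteins, which arrays do not measure. P4ha1 and P4ha2 encode prolyl hydroxylases of another kind, which act on collagen, and are themselves HIF targets.

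The sort markers and the other cell types were checked first. All 12 endothelial markers were measured, with a summed signal (log2 of the sum of the linear values) of 14.34 to 14.46 at day 0 and 14.21 to 14.38 at day 4, and limma called 0 of them (1 had an unadjusted p under 0.05, lower). Cdh5, which encodes VE-cadherin, differed by -0.18 (limma adjusted p = 0.307). Macrophage markers summed to 9.99 to 11.07 at day 0 and 11.90 to 12.27 at day 4, and 11 of 12 lay higher on both day 4 arrays. The 3 that limma called higher, Cd163, Vsig4 and Fcgr1, were near or under a log2 value of 4 at day 0 and passed the level filter through the day 4 arrays, so their calls are partly set by the filter. Thymocyte markers summed to 8.75 to 9.57 and 7.42 to 7.54, and mitosis genes to 8.83 to 9.32 and 7.62 to 7.82. Limma called 5 of 8 and 7 of 8 tested genes lower, but on both day 4 arrays 5 of 10 thymocyte and 6 of 11 mitosis genes with a probe set were under the filter, Rag2 on every array. The called genes Rag1, Cd8b1, Ccr9, Ccnb2, Ube2c and Birc5 were among those under it. They passed through the day 0 arrays, so their calls are partly set by the filter. Other lists moved without overlap too. Granulocyte markers went from 7.87 to 7.96 down to 7.14 to 7.18 (3 of 4 called lower), B cell markers from 6.69 to 6.91 down to 6.06 to 6.46 (2 of 3) and erythroid markers from 7.34 to 7.49 down to 6.46 to 6.58 (1 of 2). Several of these markers were under the filter on every array. The ones called lower, S100a8, S100a9, Camp, Cd79b, Ms4a1 and Alas2, were under a log2 value of 4 on both day 4 arrays. They passed the level filter through the day 0 arrays, so their calls too are partly set by the filter. Platelet markers went from 8.41 to 8.69 up to 9.02 on both day 4 arrays (1 of 5 called higher, Clec1b). Of the 5 tested, Pf4 (0.93) and Clec1b (1.05) had a higher mean at day 4. The means of Ppbp (-0.43), Itga2b (-0.235) and Gp9 (-0.14) were lower, and the median of the list was -0.14. Mural markers went from 12.98 to 13.07 down to 12.87 to 12.89 (0 of 9 called). Fibroblast sums overlapped, at 12.39 to 12.61 and 12.37 to 12.83 (0 of 10 called). Thymic epithelial sums overlapped too, at 10.68 to 11.41 and 9.885 to 11.08 (0 of 10 called). Of those 10 epithelial genes, 4 lay lower on both day 4 arrays. A list of fat cell genes, added after the values were seen, had 0 of 7 called by limma, and its members differed in which array was highest. Its sum, dominated by Fabp4, was 14.57 to 14.67 at day 0 and 14.69 to 14.74 at day 4. Adipoq, which encodes the fat cell hormone adiponectin, was at 9.78 on day 4 replicate 1 and at 6.28 to 7.68 on the other 4 arrays. Ucp1, the uncoupling protein of brown fat, was at 8.72 there and at 5.88 to 7.51 elsewhere. Retn was also highest there, at 7.905 against 6.07 to 6.41, as was Pck1, at 7.58 against 5.12 to 6.52 in its brighter probe set. Pparg, a regulator of fat cells that endothelial cells also express, was instead lowest on that array, at 8.97 against 9.28 to 9.55 on the others. Lpl, a lipase bound at the vessel wall, was highest on day 4 replicate 2, at 12.34 against 11.89 on replicate 1 in its brighter probe set. On a bulk array, more cells of a type and more RNA per cell cannot be told apart.

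**Figure D1:**
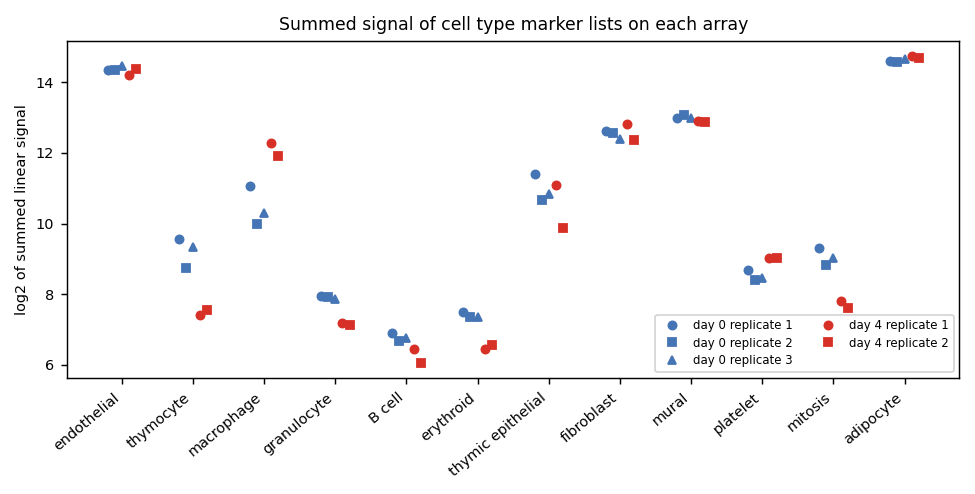
Log2 of the summed linear signal of 12 marker lists (x axis) on each array; blue symbols are the 3 day 0 arrays, red symbols the 2 day 4 arrays, and the shape gives the replicate number. The macrophage sums lay higher on both day 4 arrays (11.90 and 12.27) than on any day 0 array, the thymocyte and mitosis sums lay lower, and the adipocyte sum is dominated by Fabp4, which was at 14.29 to 14.38 on all arrays in its brightest probe set.

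Hilpda, P4ha1, P4ha2, Hk2 and Bnip3 were higher at day 4, by 1.39-fold to 2.78-fold, while Hif1a, Egln1 and Egln3 lay within 0.13 of their day 0 log2 mean in their brightest probe sets. Epas1 lay between, higher by 1.19-fold. Of the 13 probe sets past the filter, 7 had both day 4 arrays above all day 0 arrays, 3 had both below and 3 overlapped. Over all 13868 probe sets with 1 symbol past the filter, 18.9% lay above and 20.5% below in this way. In the fit over 8940 genes, 1 probe set each, limma called 1.50% of genes higher and 1.35% lower at an adjusted p under 0.05. The 9 genes described here were listed with this contrast known, so no call is given for them. Nothing is read from their probe set counts. Over all genes the calls depended on single arrays: 255 were made with all 5, 11 without day 4 replicate 1, 34 without day 0 replicate 3, and 140 and 163 without day 0 replicates 1 and 2. On both day 4 arrays the macrophage sum was higher, as was the platelet sum, though with 2 of 5 tested platelet genes higher. The fat cell sum was slightly higher. The thymocyte, mitosis, granulocyte, B cell, erythroid and mural sums were lower, as given above. The part of such a change in cell makeup in the values that follow was not tested.

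Hilpda, a small lipid droplet protein that restrains fat breakdown by the lipase encoded by Pnpla2, had the largest difference. Its probe set, 1421031_a_at, stood at 7.03, 6.69 and 6.80 on the day 0 arrays and at 8.47 and 8.16 on the day 4 arrays. Every day 4 value lay more than 1 log2 unit above every day 0 value, and the spread within each group was small beside that gap. The mean went from 6.84 ± 0.17 (SD, n = 3) to 8.31 ± 0.22 (SD, n = 2), a log2 difference of 1.48 ± 0.15 (SE), or 2.78-fold. With each array left out in turn it lay between 1.32 and 1.63.

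P4ha1 encodes a catalytic subunit of collagen prolyl 4-hydroxylase, the enzyme whose product lets the collagen triple helix stay stable at body temperature. Its brighter probe set, 1452094_at, stood at 7.41, 7.35 and 7.12 at day 0 and at 8.23 and 8.22 at day 4. The day 4 pools were almost equal and lay above all day 0 pools, with a difference of 0.93 ± 0.12 (SE), or 1.91-fold. The dimmer probe set, 1426519_at, stood at 3.37, 4.02 and 3.97 at day 0 and at 5.27 and 4.73 at day 4. It moved the same way, but 2 of its 3 day 0 values lay under the level filter, so its 2.32-fold difference rests partly on background.

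P4ha2 encodes the second catalytic subunit that pairs with the P4hb protein. Its probe set, 1417149_at, stood at 6.59, 6.32 and 6.37 at day 0 and at 7.14 and 7.35 at day 4. The groups did not overlap, and the difference was 0.82 ± 0.12 (SE), or 1.77-fold. P4ha2 was the single one of the 7 probe sets above on day 4 in which replicate 2 was the higher day 4 array, and replicate 1 was higher in the other 6.

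Hk2 encodes hexokinase 2, which traps glucose in the cell by phosphorylating it. Its probe set, 1422612_at, stood at 5.41, 5.22 and 5.32 at day 0 and at 6.93 and 5.94 at day 4. Both day 4 values were above the day 0 values, but they differed from each other by 0.99, about as much as the groups did. The difference was 1.11 ± 0.27 (SE), and it was 0.62 without day 4 replicate 1 and 1.61 without day 4 replicate 2. Day 4 replicate 1 was the array on which the macrophage sum was highest, as were Adipoq, Ucp1, Retn and Pck1 of the fat cell list. Pparg was lowest on that array, and Lpl was higher on replicate 2. The fibroblast sum was also highest on day 4 replicate 1, at 12.83 against 12.37 on day 4 replicate 2. The thymic epithelial sum was at 11.08 and 9.885 on those arrays, and at 10.68 to 11.41 at day 0. The endothelial sum was lowest on day 4 replicate 1, at 14.21 against 14.38 on day 4 replicate 2. The part of these cells in the Hk2 value was not tested.

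Bnip3 encodes a protein of the outer mitochondrial membrane that recruits the autophagy machinery to mitochondria. Its probe set, 1422470_at, stood at 8.29, 8.35 and 8.34 at day 0 and at 8.92 and 8.68 at day 4. The 3 day 0 pools were nearly equal and both day 4 pools lay above them, with a difference of 0.47 ± 0.11 (SE), or 1.39-fold. It was 0.35 without day 4 replicate 1 and 0.60 without day 4 replicate 2.

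**Figure D2:**
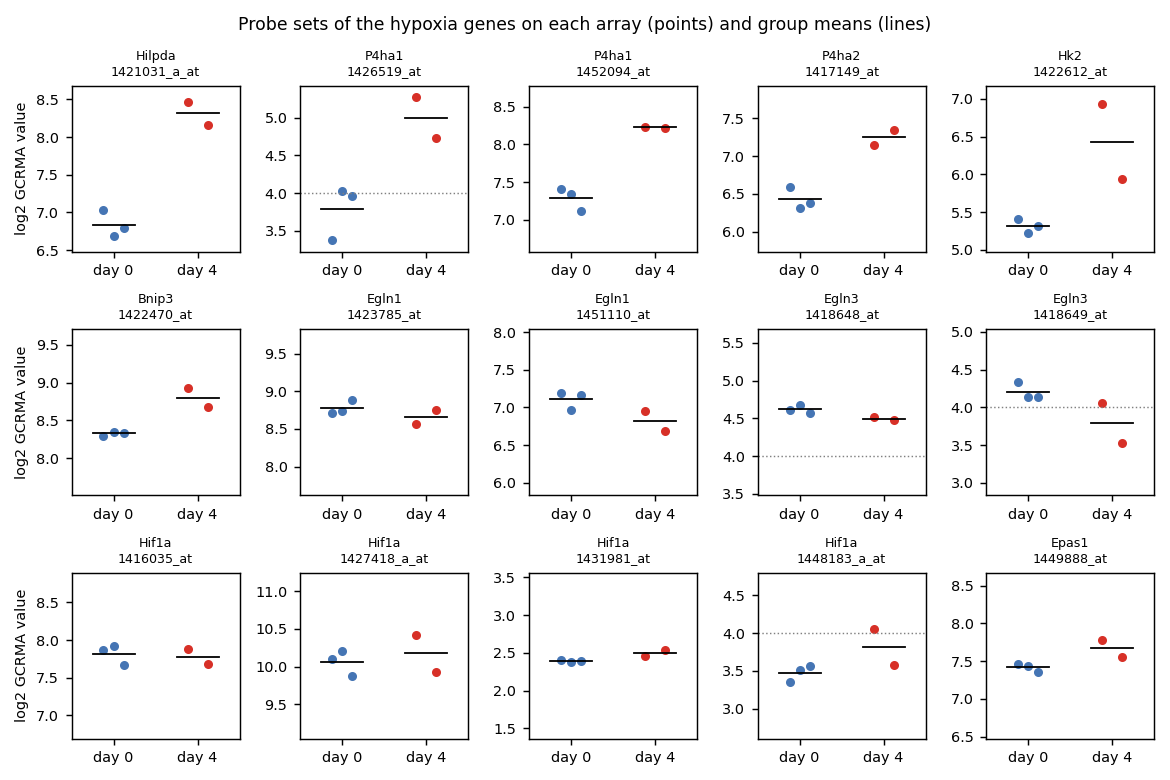
Log2 GCRMA values (y axis, each panel spanning 2.2 log2 units) of the 15 probe sets on each day 0 array (blue, n = 3) and day 4 array (red, n = 2); black lines are group means and the dotted line marks the level filter of 4. The Hilpda, P4ha1, P4ha2, Hk2 and Bnip3 points separate by group, the 2 day 4 points of Hk2 lie far apart (6.93 and 5.94), and the brighter Hif1a and Egln1 points overlap.

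The promoters of Hilpda, P4ha1, P4ha2, Hk2 and Bnip3 are shown because these genes differ in the same direction and are known HIF targets. That of Egln3 is shown because it is a known HIF target that did not stand higher. HIFs bind DNA at the core letters ACGTG or GCGTG, which were searched on both strands, so that CACGTG counts as a match on each. The sequences are RefSeq windows of build GRCm38.p6, from 250 bases before to 50 bases after the start of transcription, read 5′ to 3′ on the strand of the gene. Hilpda lies at chr6:29272376-29272675 (+), P4ha1 at chr10:59323046-59323345 (+) and P4ha2 at chr11:54100674-54100973 (+). Hk2 lies at chr6:82774405-82774704 (-), Bnip3 at chr7:138909457-138909756 (-) and Egln3 at chr12:54203825-54204124 (-). Capitals mark the matches, including those read from the other strand (CACGT or CACGC).
Hilpda: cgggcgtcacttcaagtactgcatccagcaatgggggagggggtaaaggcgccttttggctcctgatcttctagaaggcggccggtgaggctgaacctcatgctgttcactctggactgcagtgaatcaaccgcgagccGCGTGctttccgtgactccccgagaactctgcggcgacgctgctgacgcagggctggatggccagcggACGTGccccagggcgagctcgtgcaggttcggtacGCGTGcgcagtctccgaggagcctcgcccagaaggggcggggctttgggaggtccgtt
P4ha1: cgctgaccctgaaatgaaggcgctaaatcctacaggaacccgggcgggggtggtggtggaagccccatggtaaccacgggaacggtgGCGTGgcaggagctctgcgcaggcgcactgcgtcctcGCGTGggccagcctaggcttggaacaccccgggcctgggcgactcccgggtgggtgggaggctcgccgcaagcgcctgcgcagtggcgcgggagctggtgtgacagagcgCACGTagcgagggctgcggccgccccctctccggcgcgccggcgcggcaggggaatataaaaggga
P4ha2: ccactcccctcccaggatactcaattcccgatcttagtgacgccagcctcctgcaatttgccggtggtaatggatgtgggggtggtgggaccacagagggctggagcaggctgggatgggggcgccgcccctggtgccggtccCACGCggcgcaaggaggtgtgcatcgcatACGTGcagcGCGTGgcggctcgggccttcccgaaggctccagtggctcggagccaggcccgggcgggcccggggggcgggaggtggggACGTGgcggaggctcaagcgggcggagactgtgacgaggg
Hk2: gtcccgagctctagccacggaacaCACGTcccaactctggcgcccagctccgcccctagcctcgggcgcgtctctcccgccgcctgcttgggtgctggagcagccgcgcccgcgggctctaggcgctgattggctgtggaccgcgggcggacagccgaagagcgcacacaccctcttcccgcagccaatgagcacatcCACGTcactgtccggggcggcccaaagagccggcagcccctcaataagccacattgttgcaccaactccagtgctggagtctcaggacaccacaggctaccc
Bnip3: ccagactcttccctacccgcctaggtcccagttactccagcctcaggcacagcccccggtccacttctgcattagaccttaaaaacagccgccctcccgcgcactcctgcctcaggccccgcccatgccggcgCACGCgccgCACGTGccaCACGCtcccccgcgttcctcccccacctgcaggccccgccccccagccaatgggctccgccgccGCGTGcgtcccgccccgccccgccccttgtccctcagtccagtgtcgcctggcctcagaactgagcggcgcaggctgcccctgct
Egln3: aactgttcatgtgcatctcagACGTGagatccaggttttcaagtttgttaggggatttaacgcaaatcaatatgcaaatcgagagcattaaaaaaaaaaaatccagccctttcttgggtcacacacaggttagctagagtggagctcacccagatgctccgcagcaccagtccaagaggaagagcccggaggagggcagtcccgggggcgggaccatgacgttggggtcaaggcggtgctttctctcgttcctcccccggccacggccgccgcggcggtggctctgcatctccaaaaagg

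The Hilpda window held 3 matches, P4ha1 3, P4ha2 4, Hk2 2, Bnip3 5 and Egln3 1. The windows of Egln1, Hif1a and Ankrd37, not shown, held 2, 3 and 4. Of the 10 listed genes, 9 had a window, Epas1 being the exception, and Hilpda had 2 windows that overlap, of which the one with more matches is shown. All 10 windows held a match, and 8 held at least 2. Of 9318 windows of genes tested on these arrays, 61.6% held at least 1 match and 33.0% at least 2, and of all 32851 windows 43.8% and 20.6% did. With ACGTG alone, 9 of the 10 windows held a match, against 25.1% of the windows of tested genes. Such letters describe the windows and do not show that a factor binds there. Windows with and without a difference at day 4 both held them.

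The prolyl hydroxylases that act on HIF were lower by small amounts or overlapped. Egln1, the main oxygen sensor of the family, had a probe set, 1423785_at, at 8.72, 8.74 and 8.88 at day 0 and at 8.56 and 8.75 at day 4. These groups overlapped, with a difference of -0.12 ± 0.11 (SE). Its second probe set, 1451110_at, stood at 7.19, 6.97 and 7.16 at day 0 and at 6.95 and 6.69 at day 4. There both day 4 arrays were lower, by a mean of 0.29 in log2 terms, though replicate 1 lay just 0.02 below the lowest day 0 array.

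Egln3, a family member that is itself switched on by HIF in many cell types, was close to the level filter. The brighter of its probe sets, 1418648_at, stood at 4.61, 4.68 and 4.56 at day 0 and at 4.52 and 4.48 at day 4. The day 4 values lay just under the day 0 values, with a difference of -0.12 ± 0.09 (SE). The other, 1418649_at, stood at 4.34, 4.13 and 4.13 at day 0 and at 4.06 and 3.53 at day 4, so its difference of -0.41 rests on values near background. For neither hydroxylase gene did any probe set lie above day 0 on both day 4 arrays.

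Hif1a, the alpha subunit gene found in most cells, had 4 probe sets. The brightest, 1427418_a_at, stood at 10.10, 10.20 and 9.87 at day 0 and at 10.42 and 9.93 at day 4, and the next, 1416035_at, at 7.87, 7.92 and 7.67 and at 7.88 and 7.69. Both overlapped between the groups, with differences of 0.12 and -0.04. That of the brightest was -0.12 without day 4 replicate 1 and 0.36 without day 4 replicate 2, so its sign depends on which day 4 array is used. The other 2 did not pass the level filter, with values of 2.39 to 2.54 in 1431981_at and 3.35 to 4.05 in 1448183_a_at.

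Epas1, the alpha subunit gene most marked in endothelial cells, was read by probe set 1449888_at, which stood at 7.47, 7.44 and 7.36 at day 0 and at 7.78 and 7.56 at day 4. Both day 4 arrays were above the day 0 arrays, with a difference of 0.25 ± 0.11 (SE), or 1.19-fold. The gap between the groups was 0.09, smaller than the 0.22 between the 2 day 4 arrays.

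**Figure D3:**
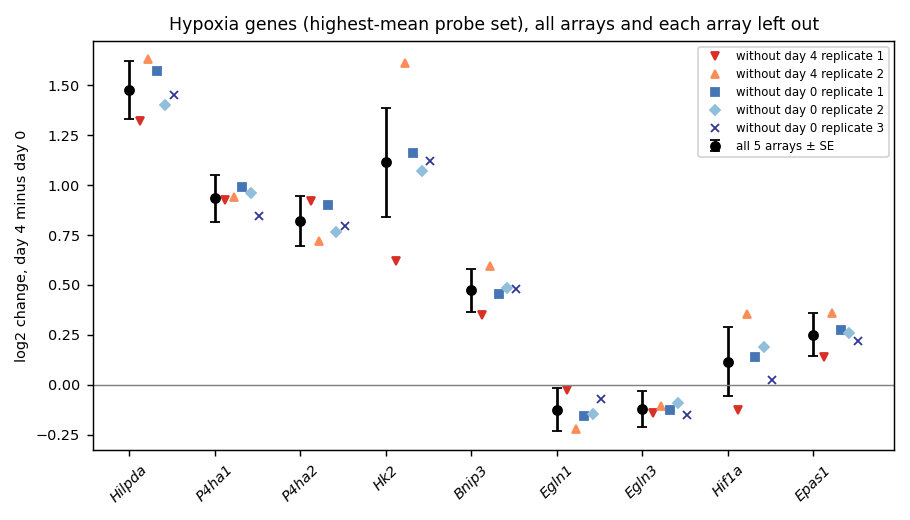
Log2 change from day 0 to day 4 (y axis) of the 9 genes with a probe set, from the brightest probe set of each; black points are all 5 arrays with the standard error, and coloured symbols are the values with 1 array left out. Hk2 ranges from 0.62 to 1.61 depending on the day 4 array used, Hif1a changes sign, and Hilpda, P4ha1 and P4ha2 stay between 0.72 and 1.63 under each left-out array.

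The genes most like Hilpda across the 5 arrays, by the root mean square difference of mean-centred log2 values, were Trp53inp1 (0.081), Spic (0.089) and Zmat3 (0.117). Their differences were 1.45, 1.51 and 1.36, which the choice by likeness to Hilpda fixes. Trp53inp1, which encodes a p53-induced nuclear protein, stood at 8.85, 8.61 and 8.72 at day 0 and at 10.21 and 10.14 at day 4. Zmat3 is likewise a known p53 target, and Spic encodes a transcription factor of iron-recycling macrophages. At day 0 Spic did not reach the level filter, at 3.31 to 3.43, so its difference is one against background. The other gene taken was Egln1, which had the lowest difference by brightest probe set, -0.124 against -0.122 for Egln3. That order turned with the mean of the probe sets, at -0.207 for Egln1 and -0.264 for Egln3. The genes most like Egln1 were Ranbp3 (0.016), Aph1a (0.018) and Unc50 (0.018), whose own differences of -0.13, -0.12 and -0.14 were as small as that of Egln1. Distances over 5 arrays in 2 groups largely repeat the group difference.

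Around these genes, 6 lists of other genes of the pathway were counted in the same fit over all genes. They held 117 genes, of which 90 could be tested. These lists too were chosen with earlier results of these data known. Their counts, shares and medians are therefore a description, and no shift of the pathway is read from them. Of the 90, 1 was called higher and 1 lower (1.11% each, against 1.50% and 1.35% of all genes). Both day 4 arrays lay above all day 0 arrays for 34.4% of them and below for 10.0%, against 18.0% and 23.0% of all genes. Their median log2 change was 0.10, against -0.02 over all genes. An unadjusted limma p under 0.05 was reached by 21 of the 90, 16 higher and 5 lower. Over all 8940 genes it was reached by 1896, 905 higher and 991 lower.

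In the machinery that controls HIF, limma called 0 of 10 tested genes. An unadjusted p under 0.05 was reached by 2 of them, 1 higher and 1 lower. The median was 0.01. Egln2, the third hydroxylase of the family, differed by 0.02, with a 95% interval of -0.24 to 0.27 (adjusted p = 0.936), and by -0.01 after median centring. Hif3a, an alpha subunit that can restrain the others, differed by -0.32 (adjusted p = 0.241) in its brightest probe set and by 0.14 in the next. Vhl and Arnt lay under the level filter on every array, at 3.02 to 3.18 for Vhl, so no change of theirs could be measured. Hif1an had no probe set of its own name.

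Of the glucose list, which holds transporters and enzymes of glycolysis, 0 of 16 passed, 3 had an unadjusted limma p under 0.05, all higher, and the median was 0.10. Slc2a1, the main glucose transporter of endothelial cells, stood at 9.02, 9.06 and 8.81 at day 0 and at 9.63 and 9.37 at day 4. All 3 of its probe sets were higher, by 0.54 to 0.65, but the adjusted p of the brightest was 0.0878. The 3 enzymes named whatever their values had intervals that include 0. Ldha, which makes lactate, differed by 0.13 (95% interval -0.16 to 0.41, adjusted p = 0.573), Pgk1 by 0.05 (-0.25 to 0.34, adjusted p = 0.856) and Pdk1, which keeps pyruvate out of mitochondria, by -0.24 (-0.77 to 0.29, adjusted p = 0.560). Slc2a3, another glucose transporter named after its values were seen, differed by 0.60 in its brightest probe set (limma adjusted p = 0.0598). That probe set was at 7.805 and 7.755 on day 4 replicates 1 and 2, against 6.996 to 7.313 at day 0. Pfkfb3, an activator of endothelial glycolysis named after its values were seen, was at 9.41 on day 4 replicate 1 and at 8.47 on replicate 2, against 8.06 to 8.42 at day 0. Like Hk2, it was highest on day 4 replicate 1.

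Among 29 other HIF targets, 1 was called higher and 1 lower, and 6 had an unadjusted p under 0.05. Hmox1, the heme-degrading enzyme, rose from 5.59 ± 0.33 (SD, n = 3) to 6.93 ± 0.30 (SD, n = 2), or 2.54-fold (limma adjusted p = 0.0370). Igfbp3, a secreted binding protein for IGF hormones, was called lower by limma, with a log2 difference of -0.75 (adjusted p = 0.0325), from values of 10.34 to 10.50 to values of 9.54 and 9.78. The Hmox1 call was lost with any single array left out, and the Igfbp3 call with any but day 4 replicate 2 left out. Hmox1 is also strongly expressed by macrophages, whose markers were higher on both day 4 arrays. Their part in it was not tested. Vegfa, the vessel growth factor, differed by 0.44 (95% interval -0.05 to 0.93, adjusted p = 0.273), and Adm, a vasoactive peptide, by 0.24 (adjusted p = 0.270). Vegfa was at 6.26 on day 4 replicate 1 and at 5.56 on replicate 2, against 5.41 to 5.52 at day 0. Ndrg1 overlapped between the groups, at -0.15 (adjusted p = 0.583), and 3 of its 4 other probe sets had differences above 0.

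P4ha1 and P4ha2 work with the collagen hydroxylation list, of which 0 of 11 genes passed and 2 had an unadjusted limma p under 0.05, both higher. P4hb, the common partner of both subunits, differed by 0.17 (95% interval -0.06 to 0.40, adjusted p = 0.359). Plod2, which hydroxylates collagen lysines and is a HIF target, stood at 5.41, 5.68 and 5.53 at day 0 and at 6.15 and 6.98 at day 4. Its difference of 1.03 was as large as those of P4ha1 and P4ha2, but its day 4 arrays were further apart, and it did not pass (adjusted p = 0.0817). The second Plod2 probe set gave 0.49. P4ha3 had no probe set of its own name.

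Hilpda acts at lipid droplets. Of 12 tested genes of droplets and fat breakdown, 0 passed and 4 had an unadjusted limma p under 0.05, all higher, with a list median of 0.37. Plin2, the coat protein of droplets, stood at 10.23, 10.16 and 10.21 at day 0 and at 10.67 and 10.64 at day 4. The groups were far apart beside their spread, but the change of 0.46 missed the threshold (adjusted p = 0.0546). Pnpla2, the lipase that Hilpda restrains, differed by 0.32 (95% interval 0.08 to 0.55, adjusted p = 0.137), and G0s2, a second inhibitor of it, by -0.34 (adjusted p = 0.417). The G0s2 difference was -0.67 without day 4 replicate 1 and -0.0031 without day 4 replicate 2. The largest differences of the list were those of Cidea and Cidec, droplet proteins of fat cells named after their values were seen. Cidea was at 8.38 on day 4 replicate 1 and at 5.01 to 6.31 on the other 4 arrays, and Cidec at 7.02 and at 3.95 to 5.06. Adipoq and Ucp1 were likewise highest on that array. On day 4 replicates 1 and 2, Hilpda was at 8.47 and 8.16 and Plin2 at 10.67 and 10.64. The part of fat cells in these values was not tested.

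Bnip3 shares its role with receptors and adaptors of mitophagy. Of 12 tested, 0 passed and 4 had an unadjusted limma p under 0.05, 2 higher and 2 lower, with a median of 0.17. Both day 4 arrays lay above all day 0 arrays for 58.3% of the list and below for 16.7%, against 18.0% and 23.0% of all genes. As the list was chosen with earlier results of these data known, nothing is read from these shares. Sqstm1, an autophagy adaptor named after its values were seen, had the largest difference, 0.61 (adjusted p = 0.0557). Fundc1, another mitophagy receptor of the outer membrane, was lower by 0.36 in its mean (95% interval -0.69 to -0.02, adjusted p = 0.214). Bnip3l, the closest relative of Bnip3, had no probe set of its own name.

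**Figure D4:**
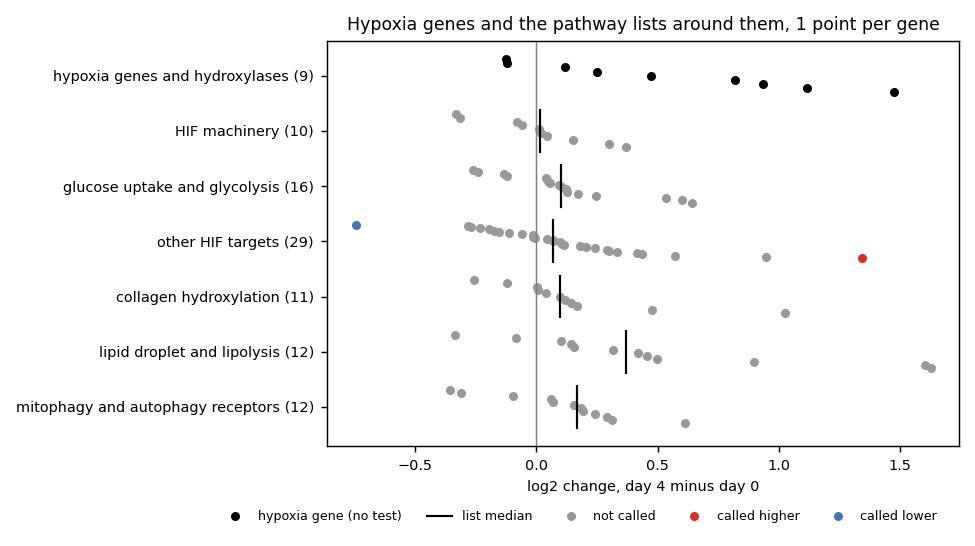
Log2 change from day 0 to day 4 (x axis) of each gene, 1 point per gene, for the 9 hypoxia genes and for 6 pathway lists (y axis, number of genes in brackets); black bars are list medians, and red and blue points are the genes called higher (Hmox1) and lower (Igfbp3). The list medians lie between 0.01 and 0.37, and 4 of the 9 hypoxia genes lie above 0.8.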

How the data were processed

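Expression was measured on 5 Affymetrix mouse arrays. The authors deposited log2 values, 1 for each probe set on each array. The submitters' processing notes name GCRMA. No source used here gives its version or says if all arrays were processed in 1 run. GCRMA sets the arrays to a common distribution, which hides a change shared by most genes, and it spreads out low values. Array medians were 5.26 to 5.30, and 64.9% to 65.5% of probe sets lay above 4. The 3' minus 5' signal of actin control probe sets was 1.43 to 1.65 at day 0 and 1.35 to 1.39 at day 4.

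The platform annotation named 1 symbol for 20380 probe sets, and 20351 of these matched the RefSeq table of GRCm38.p6 by Entrez identifier. For each gene the probe set with the highest mean stood in the fit, if above 4 on at least 2 arrays. Day 4 was set against day 0 by limma 3.58.1 (lmFit, then eBayes, under R 4.3.3), two-sided, with Benjamini-Hochberg adjustment over 8940 genes and 3 residual and 3.29 prior degrees of freedom. The fit was tested on simulated data. Python 3.11.15 and matplotlib 3.10.9 made the plots.

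The genes described and the lists were chosen with earlier results of these data known. Named from the lists were, by rule, up to 2 called genes with the largest rise and 2 with the largest fall per list and a fixed set of well-known pathway genes whatever their values, and further genes are marked as named after their values were seen. The small number of arrays limits precision. Alternatives were other scalings, level filters, probe set rules and variance models, the replicate number as a block, and leaving out each array.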

Additional observations from a re-analysis of the deposited data

How the results depend on the processing

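Without day 4 replicate 1 the calls over all genes fell from 255 to 11, and without day 4 replicate 2 they were 341. Leaving out day 0 replicates 1, 2 and 3 gave 140, 163 and 34. An intensity trend with robust fitting gave 418, array weights 86 and the replicate number as a block 481. The shared numbers did not mark a stated pairing. Deviations of same-numbered arrays correlated at 0.16 and 0.08, and those of the other pairs at -0.16 to 0.10. With 2 day 4 arrays, the correlations of replicate 2 are those of replicate 1 with the sign turned. Calls among the other HIF targets numbered 0 with array weights, 1 with every probe set fitted, and 0 to 4 with an array left out, against 2. The trend setting called 2 glucose genes, 1 collagen, 2 droplet and 1 mitophagy gene, the block 1 collagen, 1 droplet and 1 mitophagy gene, and a filter at 6 gave 1 glucose, 2 droplet and 1 mitophagy gene, all higher. With an array left out, glucose calls were 0 to 1 and droplet calls 0 to 3.

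Values near 0 changed sign: Ptprc at -0.015 (quantile) and -0.025 (median centring), Egln2 at -0.012 (median centring) and -0.040 (block), Ndrg1 at 0.057 (mean of probe sets) and Pgk1 at -0.0087 (block). With an array left out, Egln2 ran from -0.040 to 0.070, Ldha from -0.028 to 0.28, Pgk1 from -0.082 to 0.18, Pdk1 from -0.61 to 0.13, Ndrg1 from -0.32 to 0.0092, Pecam1 from -0.051 to 0.33, Epcam from -1.23 to 0.27 and Ptprc from -0.22 to 0.17. The cause was not tested. Signs of Hilpda, P4ha1, P4ha2, Hk2, Bnip3, Epas1, Egln1 and Egln3 were the same in every alternative in which they were fitted. Those of the hydroxylases stayed small, at -0.221 to -0.0269 for Egln1 and -0.264 to -0.0911 for Egln3. Hif1a changed sign, from -0.124 to 0.357. With 2 day 4 arrays, changes under about the spread of those arrays could not be resolved.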
